A study of Rattus norvegicus with 17 samples.

Results

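The 8 genes described here encode receptors for acetylcholine: the muscarinic receptors Chrm1, Chrm2, Chrm3 and Chrm4 and the nicotinic subunits Chrna4, Chrna5, Chrna7 and Chrnb2. They were taken by symbol from a table of 19298 genes and all 8 were present. RNA was measured in single nuclei of the rat prefrontal cortex. The labels describe wild type rats without stress (4 libraries), wild type rats after a forced swim (4), rats with a knockdown of Srd5a2 and no stress (5) and knockdown rats after the swim (4). Srd5a2 encodes 5α-reductase 2, an enzyme of neurosteroid synthesis. The forced swim is an acute stressor of 10 min in water at 25 °C, and the labels do not say for which rats the tissue was taken at once and for which it was taken later. They also do not say how the knockdown was made or give the rats' age or strain. The brain region is the same in all 4 groups.

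Acetylcholine reaches the cortex mainly from neurons of the basal forebrain. Muscarinic receptors are coupled to G proteins: Chrm1 and Chrm3 act through Gq and phospholipase C, which tends to excite a neuron, whereas Chrm2 and Chrm4 act through Gi and lower cyclic AMP and transmitter release. Nicotinic receptors are pentameric cation channels that open within milliseconds. In the cortex they are built mostly from Chrna4 with Chrnb2, in some neurons with Chrna5 as an accessory subunit, or from Chrna7 alone, which passes more calcium.

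The nuclei carry library names in 4 numbered sets that the labels do not use. Only the third set has a library with the number 5, and only the unstressed knockdown group has 5 replicates, so these 5 are taken as that group and called labelled libraries. The remaining 12 are tied to no group, and their values are given singly or as ranges. The effects of the swim and of the knockdown were therefore not compared. The labelled libraries held 7541 to 9560 nuclei and 24920319 to 60309455 UMIs, a UMI being a tag that marks a single captured transcript. Together they gave 16918 excitatory and 4503 inhibitory nuclei, with median depths of 7117 and 5051 UMIs. Srd5a2 itself was near the limit of detection, at 8 to 24 UMIs in a labelled library (0.209 to 0.468 CPM, the usual scaling of a count to a fixed library total) and 8 to 23 in the others (0.125 to 0.556 CPM), so the labels could not be checked with it. Any 2 libraries shared at most 0.413% of the barcodes of the smaller one. Of the unassigned libraries, 2 from the fourth set stood apart (g4.3 and g4.4): they held the most inhibitory nuclei, up to 21.7% against 8.64% to 11.3% in the labelled ones, and up to 249.01 CPM of Klrb1b in excitatory nuclei against at most 18.3.

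Nuclei were grouped without the cholinergic genes. Clusters that carried enough fixed markers are called by them, as in Sst-like, and the others by their 3 leading genes. Clusters with the same name were pooled. In all, 9 excitatory and 12 inhibitory groups of neurons were compared, of which 10 were named from markers and 11 were not. The groups were rebuilt from the counts, so they may differ from those of the submitters. Levels are given in CPM of all the UMIs of a group of nuclei in a library, as mean ± SD over the 5 labelled libraries. A 3′ count does not depend on transcript length in a known way, so levels are compared between groups of nuclei for a gene and not between genes.

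Between excitatory and inhibitory nuclei of the same libraries, 4 of the 8 receptor genes were higher in excitatory nuclei (Chrna5, Chrm1, Chrm4 and Chrna4), 2 were lower (Chrm3 and Chrna7) and 2 did not pass the test (Chrm2 and Chrnb2) by edgeR's quasi-likelihood test at an adjusted p under 0.05. Of all 13554 genes tested 61% were called (26.8% as higher in excitatory nuclei, 34.2% as lower), so a call on its own was common. The median log2 difference of the 8 genes was 0.35, beside -0.06 over all genes tested. For Chrna5, Chrm1 and Chrm4 the 5 excitatory values lay above all 5 inhibitory values, which held in either direction for 30.8% of all genes tested.

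**Figure D1:**
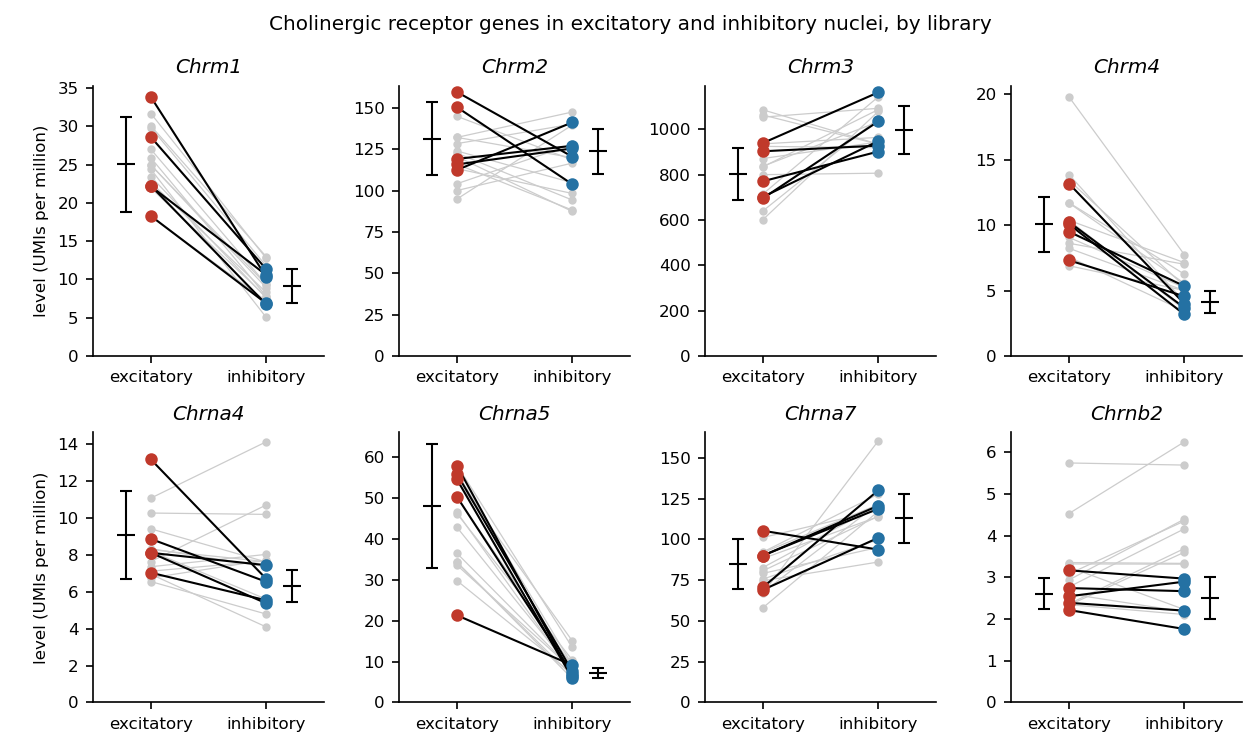
Level of each receptor gene (vertical axis, CPM, from 0) in excitatory and inhibitory nuclei of each library. Joined large points are the 5 labelled libraries, bars beside them their mean and SD, and small grey points the 12 unassigned libraries. Chrm1, Chrm4 and Chrna5 show no overlap of the 5 labelled pairs, and replicate 5 is the low point of Chrna5 at 21.3.

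Chrm1, the main Gq-coupled muscarinic receptor of cortical pyramidal cells, was read at 18.3, 22.2, 22.2, 28.6 and 33.8 CPM in excitatory nuclei of replicates 1 to 5 and at 6.86, 10.6, 6.73, 11.3 and 10.3 CPM in inhibitory nuclei. Every excitatory value exceeded every inhibitory one. The means were 25.0 ± 6.16 and 9.16 ± 2.19 CPM (n = 5 each), a log2 difference of 1.56 (SE 0.11, edgeR adjusted p = 1.65e-08). Among the excitatory groups Chrm1 ran from 27.7 ± 8.52 CPM in Galnt14 Rxfp1-like nuclei, 26.9 ± 7.63 in upper-layer-like and 26.4 ± 5.98 in Il1rapl2 Slc7a11 Col8a1 nuclei down to 11.2 ± 4.85 in Nxph1 Efcab3 Tshz2 nuclei, a range of 2.48-fold. Neighbours in this order overlapped. Nxph1 Efcab3 Tshz2 nuclei were the 1 excitatory group not called higher, and against the sum of all other neurons they were lower (log2 difference -1.04, edgeR adjusted p = 2.45e-05, 5 of 5 libraries). Of the inhibitory groups only Lamp5-like nuclei were called higher by edgeR (log2 difference 1.16, adjusted p = 6.52e-04), at 15.6, 37.4, 21.2, 28.8 and 21.8 CPM. Their mean of 25.0 ± 8.37 lay within the spread of the excitatory groups. As an alternative, neurons were assigned by marker score, each to 1 of the 10 groups named from markers. The other 11 groups have no place there, so both the members of a group and the groups it is set against change. With nuclei assigned by marker score the difference of Chrm1 in Lamp5-like nuclei was -0.13, the opposite direction.

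Chrm4, coupled to Gi, showed the same order of the classes at fewer UMIs. Its excitatory values were 9.50, 10.1, 7.31, 10.2 and 13.2 CPM and its inhibitory values 5.34, 3.17, 4.56, 3.69 and 3.99 CPM. The lowest excitatory value was above the highest inhibitory one. The fitted difference was a log2 of 1.35 (SE 0.16) with an edgeR adjusted p of 6.25e-06. Within the excitatory groups it ranged from 12.7 ± 4.19 CPM in Galnt14 Rxfp1-like, 12.6 ± 2.5 in layer 5 extratelencephalic-like and 12.5 ± 2.87 in mid-layer Rorb-like nuclei to 3.53 ± 2.99 in Vwc2 Palldl1 Tenm3 nuclei (8 UMIs). In Slit2 Mybpc1 Ltbp1 nuclei no UMI of Chrm4 was counted among 649959, which allows up to 4.62 CPM, a limit of 3 counts that covers counting error only.

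Chrm1 and Chrm4 are the muscarinic genes of the 8 whose classes did not overlap, and their promoters are shown for comparison as the 250 bases before the RefSeq start in the build GRCr8. Capitals mark GC boxes (GGGCGG on either strand, overlaps counted), the letters bound by Sp-family factors. Chrm1 lies on chr1:214996109-214996358 (+) and Chrm4 on chr3:98348830-98349079 (+).
Chrm1: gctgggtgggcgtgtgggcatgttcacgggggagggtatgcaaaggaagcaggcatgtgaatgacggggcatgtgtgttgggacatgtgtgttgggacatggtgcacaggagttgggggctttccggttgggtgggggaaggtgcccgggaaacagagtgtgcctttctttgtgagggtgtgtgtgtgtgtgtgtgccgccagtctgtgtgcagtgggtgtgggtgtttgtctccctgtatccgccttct
Chrm4: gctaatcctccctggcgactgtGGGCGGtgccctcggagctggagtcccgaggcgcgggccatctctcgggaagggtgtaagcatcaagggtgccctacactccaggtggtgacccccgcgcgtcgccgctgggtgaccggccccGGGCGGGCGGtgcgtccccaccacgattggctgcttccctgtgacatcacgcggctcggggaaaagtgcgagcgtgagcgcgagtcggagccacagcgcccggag
Chrm1 held 7 CpG pairs and no GC box in this window, and Chrm4 held 28 CpG pairs and 3 GC boxes. Of all 33469 promoters of that RefSeq set, 30.5% held a GC box, and the median promoter held 5 CpG pairs. All 8 receptor genes had a promoter there, and 7 of them held 1 to 4 GC boxes. The letters TGACGTCA (a cyclic AMP response element, in 1.59% of all promoters) and CAGATG (an E-box, in 14.0%) were found in none of the 8 on either strand. These are matches of letters in a window, not measured sites.

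Chrm3, the other Gq-coupled member, was counted in most neurons and was slightly lower in excitatory nuclei. Excitatory values were 696, 771, 702, 903 and 940 CPM and inhibitory values 1036, 902, 949, 929 and 1164 CPM. The classes overlapped, but within each library the inhibitory value was the higher. The fitted difference was a log2 of -0.24 (SE 0.07) with an edgeR adjusted p of 0.00984. Without replicate 1 the difference was -0.16 and its adjusted p 0.0965, without the library as a block the adjusted p was 0.135, and with nuclei assigned by marker score it was 0.305.

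The small class difference hid a wide range between groups. Chrm3 was highest in Sst-like nuclei at 1898, 1452, 1760, 1648 and 2105 CPM, followed by Col5a2 Nxph2 Hs3st4 (1711 ± 230), Vwc2 Palldl1 Tenm3 (1577 ± 196), Vip-like (1575 ± 175) and upper-layer-like nuclei (1445 ± 183). Neighbours among these 5 overlapped. At the other end Nxph1 Efcab3 Tshz2 nuclei read 13.3, 11.2, 12.4, 10.1 and 48.2 CPM and Lamp5-like nuclei 65 ± 19.0 CPM, beside 33.5 ± 14.4 in microglia. The excitatory groups spanned 82.9-fold, down to a level not above that of microglia, and the inhibitory groups 27.3-fold. The tests of these 2 low groups against the mean log level of the other groups gave log2 differences of -5.04 (SE 0.21, adjusted p = 3.76e-44) and -3.24 (SE 0.20, adjusted p = 2.49e-29), and Sst-like nuclei were higher by 1.77 (SE 0.10, adjusted p = 6.81e-33), all by edgeR. Each of the 3 differences had its direction in 5 of 5 libraries. Upper-layer-like nuclei, 25.5% of the neurons in the groups compared, held 46.0% of the neuronal Chrm3 UMIs.

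Chrm2, a Gi-coupled receptor known from cholinergic terminals and from subsets of cortical interneurons, did not pass the test between classes. Excitatory values were 151, 119, 116, 113 and 160 CPM and inhibitory values 104, 127, 126, 141 and 121 CPM, higher in excitatory nuclei in 2 libraries and lower in 3. The fitted difference was a log2 of 0.15 (SE 0.10) with an edgeR adjusted p of 0.212. It became 0.31 with an adjusted p of 0.0212 without replicate 4, and the adjusted p was 0.00841 at equal depth per nucleus and 0.0315 with no filter on low counts.

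Between groups of neurons Chrm2 ranged from 1.74 to 1652 CPM. It was highest in the small Npsr1 Tacr1 Nos1 group of inhibitory nuclei (68 nuclei), at 1557, 1232, 1600, 1611 and 2262 CPM, a log2 difference of 4.43 above the mean of the other groups (SE 0.15, edgeR adjusted p = 1.91e-52). Next came Nxph1 Efcab3 Tshz2 excitatory nuclei at 920, 628, 650.5, 808 and 679 CPM (log2 difference 3.47, SE 0.10, edgeR adjusted p = 7.11e-61). These 2 groups did not overlap with each other, nor with the third. Of the inhibitory groups, 3 named by Slit2 or Mybpc1 followed at 490 ± 59.9 (Slit2 Fras1 Shroom3), 420 ± 74.3 (Slit2 Mybpc1 Ltbp1) and 364 ± 22.9 CPM (Mybpc1 Slit2 Arhgap6), overlapping neighbours that were all called higher. Their best marker name was Pvalb, with 2, 0 and 2 of 4 markers at 2-fold or more. Slit2 did not set them apart. It also led in Pvalb-like and Adamtsl1 Matn2 Htr2c nuclei, which had 52.3 ± 16.0 and 69.8 ± 29.0 CPM of Chrm2 and were not called. The Galnt14 Rxfp1-like and Cux2 Pld5 Rorb excitatory groups were level with each other at 255 ± 44.5 and 252 ± 35.7 CPM.

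Chrm2 was low in 4 inhibitory groups. Lamp5-like nuclei gave 4 UMIs in 5 libraries and Adarb2 Cpne4 Cadps2 nuclei 1 UMI, the latter 3.82 CPM of their summed UMIs with an exact Poisson interval of 0.0967 to 21.3. Vip-like nuclei stood at 4.19 ± 3.52 CPM and Cnr1 Adarb2-like nuclei at 17.8 ± 11.2, and all 4 groups were called lower by edgeR (adjusted p from 2.54e-05 to 6.18e-04). Microglia read 13.4 ± 4.93 CPM, so Chrm2 in Lamp5-like and Vip-like nuclei was not above the level in a class that should lack it. The low call of Lamp5-like nuclei was not kept when nuclei were assigned by marker score, where both the members and the mean compared against change. With marker score, which has only the groups named from markers, the difference for Lamp5 was 0.71, in the opposite direction. In Npsr1 Tacr1 Nos1 nuclei, at 1652 CPM of Chrm2, Lamp5 markers had the highest mean log2 fold of the inhibitory names (1.77). At 2-fold or more these nuclei carried 2 of 6 Lamp5 markers and 3 of 6 Sst markers, the latter with a mean of 0.94. The part of these nuclei in the change was not tested.

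**Figure D2:**
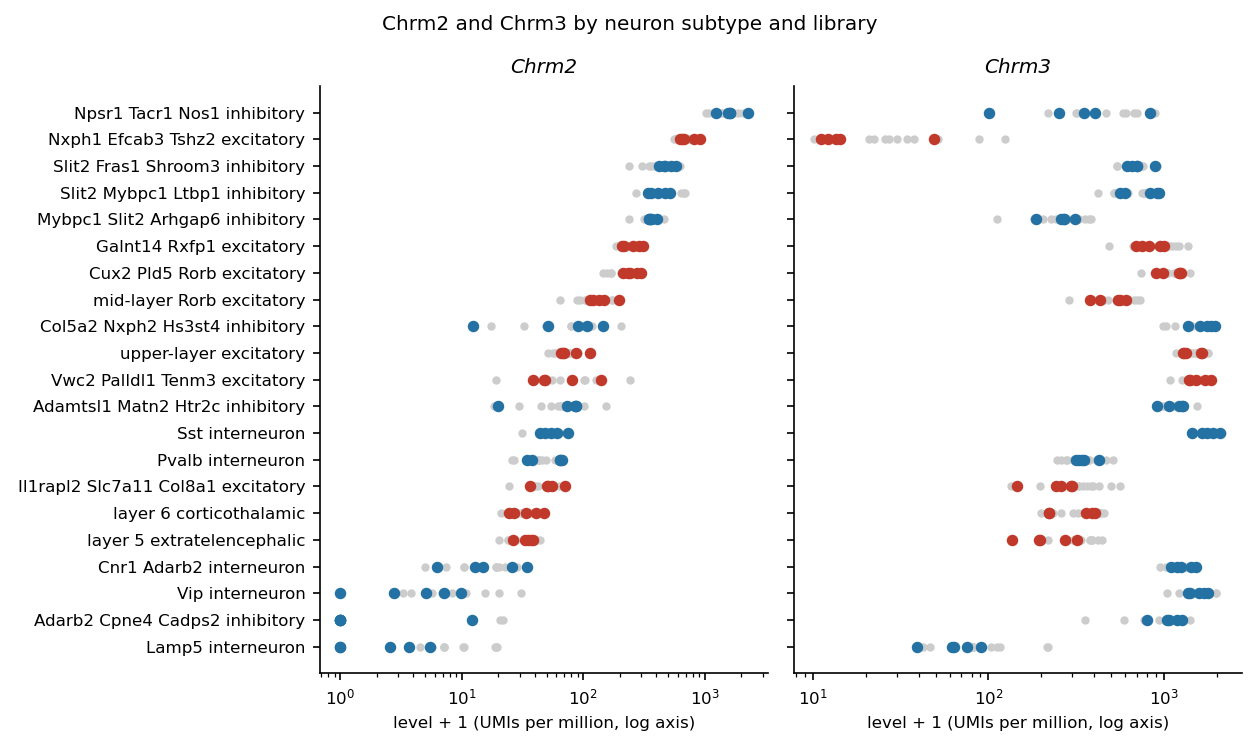
Chrm2 (left) and Chrm3 (right) in 21 groups of neurons, as level + 1 in CPM on log axes, with groups ordered by Chrm2. Red points are excitatory and blue points inhibitory groups in the 5 labelled libraries, grey points the unassigned libraries. Nxph1 Efcab3 Tshz2 nuclei are second for Chrm2 (737 CPM) and last for Chrm3 (19.0 CPM), whereas Lamp5-like nuclei are low for both.

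The orders of Chrm2 and Chrm3 differed. Over the 21 groups their Pearson correlation of mean log2(CPM + 5) was -0.20, a description over groups that share libraries. Nxph1 Efcab3 Tshz2 nuclei had 737 ± 124 CPM of Chrm2 and 19.0 ± 16.3 of Chrm3. Vip-like nuclei had the reverse, 4.19 ± 3.52 of Chrm2 and 1575 ± 175 of Chrm3. Lamp5-like nuclei were low for both, and Slit2 Fras1 Shroom3 nuclei held both at 490 ± 59.9 and 715 ± 108 CPM.

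Of the nicotinic genes, Chrna5 had the largest class difference. Its product joins receptors of Chrna4 and Chrnb2 and raises their calcium permeability. Excitatory values were 50.3, 57.9, 54.5, 55.8 and 21.3 CPM and inhibitory values 7.05, 6.34, 5.94, 7.64 and 9.09 CPM. Excitatory nuclei were higher in all 5 libraries, but replicate 5 was the lowest in excitatory nuclei and the highest in inhibitory ones. The fitted difference was a log2 of 2.67 (SE 0.20) with an edgeR adjusted p of 5.07e-08. In sums over a class, more nuclei of a group and more RNA per nucleus cannot be told apart.

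Within excitatory nuclei Chrna5 was held by 3 groups. Vwc2 Palldl1 Tenm3 nuclei read 287, 308, 341, 350 and 288 CPM, layer 6 corticothalamic-like nuclei 166, 202, 148, 188 and 128 CPM, and Nxph1 Efcab3 Tshz2 nuclei 146, 167, 185, 175 and 126 CPM. The first lay above the other 2 in all libraries, and the other 2 overlapped. The fourth group, Cnr1 Adarb2-like inhibitory nuclei, stood at 33.7 ± 15.0 CPM, and the lowest excitatory group, Cux2 Pld5 Rorb nuclei, at 2.48 ± 1.50, which makes a span of 127-fold among excitatory groups. The log2 differences from the mean of the other groups were 5.82 (SE 0.13), 4.73 (SE 0.10) and 4.58 (SE 0.12), with edgeR adjusted p of 1.04e-66, 3.41e-72 and 6.26e-60 and 5 of 5 libraries in this direction. That mean includes a group with no UMI, so the sizes depend on a small count added to the 0 and the SEs do not bound them. Against the sum of the other neurons, given below, the differences were smaller. Layer 6 corticothalamic-like nuclei held 61.5% of the Chrna5 UMIs of the neurons compared in 14.2% of the nuclei, Nxph1 Efcab3 Tshz2 nuclei 13.7% in 4.97%, and Vwc2 Palldl1 Tenm3 nuclei 11.1% in 1.06%. Vwc2 Palldl1 Tenm3 nuclei (220 nuclei) carried 5 of 7 corticothalamic and 4 of 5 layer 6b markers at 2-fold or more and were therefore left with their leading genes as name, although Chrna5, which took no part in the clustering, was also among the first of these. Nxph1 Efcab3 Tshz2 nuclei (1027 nuclei) carried 2 of 5 near-projecting and 5 of 7 corticothalamic markers. By mean log2 fold the order was the reverse, with 2.00 for near-projecting and 1.54 for corticothalamic markers.

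The low excitatory value of replicate 5 went with the makeup of that library. The 3 groups made up 17.8% of its nuclei in the 9 excitatory groups against 23.9% to 30.7% in the other 4 labelled libraries. They held 77.4% of the Chrna5 UMIs of those nuclei against 90.0% to 90.8%. The 9 groups held 3272 of the 3612 excitatory nuclei of replicate 5. In replicates 1 to 4 they held 2662 of 2802, 2899 of 3009, 3534 of 3588 and 3872 of 3907. Nuclei outside these groups, among them a subcluster left out for astrocyte markers, stayed in the class sum. The levels of replicate 5 within layer 6 corticothalamic-like and Nxph1 Efcab3 Tshz2 nuclei, 128 and 126 CPM, were also the lowest of the 5. In Vwc2 Palldl1 Tenm3 nuclei it read 288 CPM beside 287 in replicate 1. How much of the low value each of these carries was not tested.

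**Figure D3:**
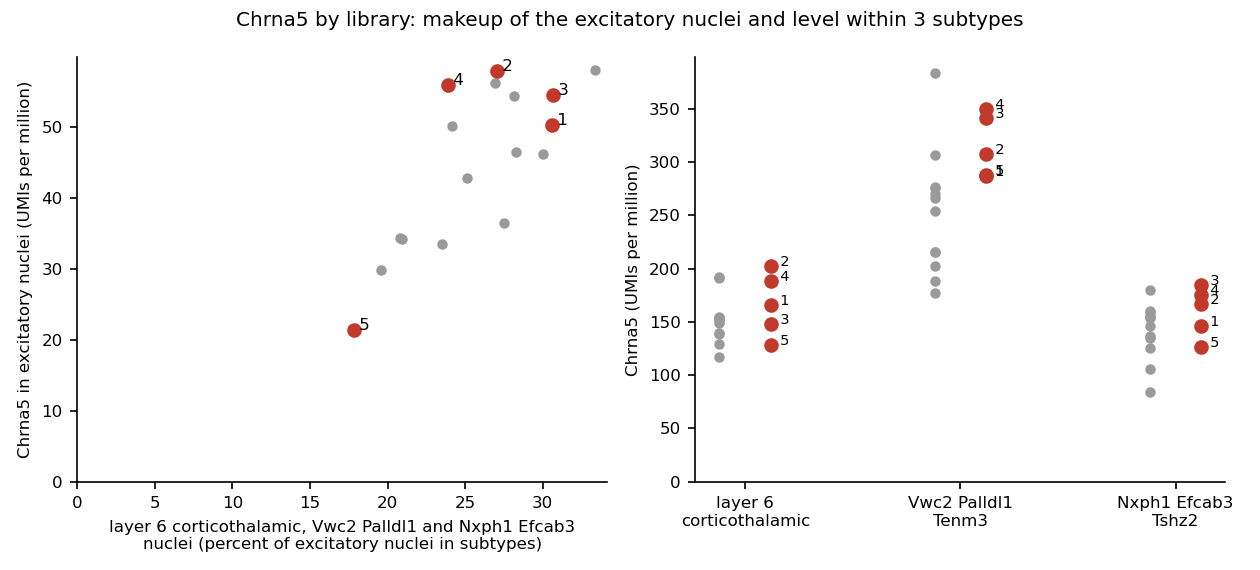
Left, Chrna5 in excitatory nuclei (CPM) against the 3 groups with most Chrna5 as percent of the nuclei in the 9 excitatory groups, for each library. Right, Chrna5 within each of those groups. Numbered red points are the 5 labelled replicates and grey points the 12 unassigned libraries. Replicate 5 is lowest in both measures on the left, at 21.3 CPM and 17.8%.

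Chrna4, the partner of Chrnb2 in most high-affinity nicotinic receptors, was counted at 8.11, 13.2, 8.86, 7.03 and 8.11 CPM in excitatory and 7.44, 6.69, 6.54, 5.53 and 5.37 CPM in inhibitory nuclei. It was higher in excitatory nuclei in all 5 libraries although the classes overlapped, with a log2 difference of 0.54 (SE 0.13, edgeR adjusted p = 0.00227). At equal depth per nucleus the adjusted p was 0.0806. Its 2 highest groups were 2 of the 3 that held Chrna5: Nxph1 Efcab3 Tshz2 nuclei at 24.0 ± 6.66 CPM and Vwc2 Palldl1 Tenm3 nuclei at 23.5 ± 8.92, which overlapped. Vip-like nuclei came next at 13.1 ± 6.17, then Adarb2 Cpne4 Cadps2 nuclei on 3 UMIs and layer 6 corticothalamic-like nuclei at 13 ± 2.37, all overlapping. Of the 6 groups called higher by edgeR, 3 were those that held Chrna5 (log2 differences 1.95, 2.16 and 1.15, adjusted p = 1.86e-13, 3.40e-09 and 1.85e-07), and the others were Vip-like (1.11), Galnt14 Rxfp1-like (0.93) and Il1rapl2 Slc7a11 Col8a1 nuclei (0.90). Upper-layer-like nuclei were the lowest excitatory group at 3.19 ± 0.706 CPM, 7.53-fold below the highest. Over the 21 groups Chrna4 and Chrna5 correlated with a Pearson coefficient of 0.58.

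Chrnb2, the common beta subunit, was sparse. Excitatory values were 2.74, 2.22, 3.17, 2.55 and 2.39 CPM and inhibitory values 2.67, 1.76, 2.97, 2.90 and 2.2 CPM, from 399 and 72 UMIs. The classes overlapped and differed by a log2 of 0.12 (SE 0.18) at an edgeR adjusted p of 0.610. It fell under the filter on low counts for the test between groups of neurons and was not tested there. In the 9 excitatory groups it lay between 1.43 ± 1.96 and 4.1 ± 2.2 CPM, and in 2 inhibitory groups, Col5a2 Nxph2 Hs3st4 and Slit2 Mybpc1 Ltbp1, no UMI was counted, which allows up to 4.16 and 4.62 CPM.

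Chrna7, which forms channels on its own, was lower in excitatory nuclei. Values were 70.6, 90.1, 105, 69.0 and 90.0 CPM in excitatory and 130, 119, 93.7, 101 and 121 CPM in inhibitory nuclei. The inhibitory value was the higher in 4 of 5 libraries, replicate 3 being the exception. The fitted difference was a log2 of -0.35 (SE 0.10) with an edgeR adjusted p of 0.0106, and the adjusted p was 0.0896 without replicate 1, 0.0657 without replicate 4, 0.0504 without the library as a block and 0.0666 with nuclei assigned by marker score.

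Among groups Chrna7 was highest in 2 inhibitory groups. Cnr1 Adarb2-like nuclei read 554, 498, 378, 385 and 564 CPM, above every other group in every labelled library, and Lamp5-like nuclei read 375, 224, 193, 205 and 245 CPM. The log2 differences were 3.25 (SE 0.12, edgeR adjusted p = 7.36e-49) and 2.25 (SE 0.15, edgeR adjusted p = 2.24e-27). Galnt14 Rxfp1-like excitatory nuclei (152 ± 39.1 CPM) and Vip-like nuclei (126 ± 25.7) followed and overlapped each other. Adarb2 Cpne4 Cadps2 nuclei stood at 52.4 ± 30.4 CPM from 16 UMIs and were not called. The Cnr1 Adarb2-like group pools subclusters of 1012 and 430 nuclei over all libraries. At 2-fold or more the larger carried 5 of 6 Cnr1 Adarb2 markers. The smaller carried 3 of 6 Cnr1 Adarb2 and 4 of 6 Lamp5 markers, with mean log2 folds of 2.32 and 1.58. The groups with most Chrm2 had little Chrna7: 8.60 ± 12.1 CPM in Npsr1 Tacr1 Nos1 nuclei (4 UMIs), 10.4 to 27.1 in the 3 groups named by Slit2 or Mybpc1, and 31.0 ± 7.40 in Nxph1 Efcab3 Tshz2 nuclei, all called lower. Over the 21 groups the Pearson coefficient of Chrm2 with Chrna7 was -0.63, the lowest of the 28 pairs of receptor genes, and that of Chrm1 with Chrna7 was 0.68, the highest.

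**Figure D4:**
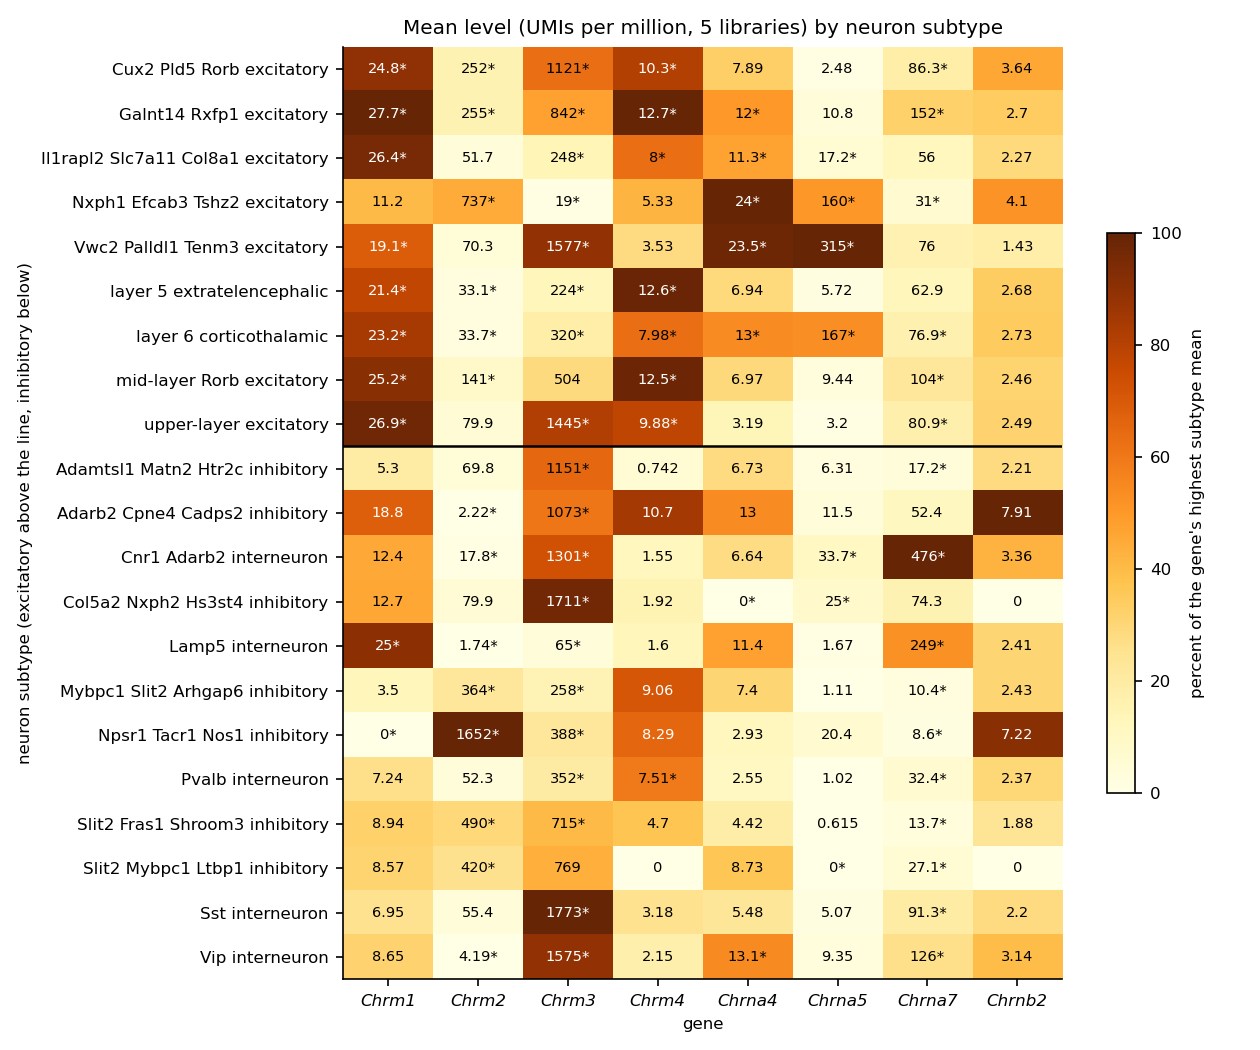
Mean level of each receptor gene (printed, CPM over the 5 labelled libraries) in 9 excitatory and 12 inhibitory groups of neurons, coloured as percent of that gene's highest mean. A star marks a call against the mean of the other groups by edgeR; Chrnb2 was not tested. Chrna5 is dark in 3 excitatory groups, Chrna7 in 2 inhibitory groups and Chrm2 in 1.

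The call against the mean log level of the other groups had a limit. Where a gene had no UMI in some group, that group's log level is not defined, which happened for Chrm1 (Npsr1 Tacr1 Nos1), Chrm4 and Chrna5 (Slit2 Mybpc1 Ltbp1) and Chrna4 (Col5a2 Nxph2 Hs3st4), and a call of lower could not be made for other groups of those 4 genes. Their 3 lower calls (Chrm1, Chrna5 and Chrna4, each in its group with no UMI) stand in the counts that follow. The group at 0 is also part of the mean that every other group of these 4 genes is set against, so the size of all their differences, higher ones included, depends on the small prior count added to a 0 and is no bound. Over 7 genes and 21 groups 81 of 147 pairs were called, 57 higher and 24 lower, beside 18.6% higher and 11.8% lower over all pairs of gene and group. Of the higher calls Chrm1, Chrm4, Chrna4 and Chrna5 gave 9, 8, 6 and 6. For these genes the group at 0 lowers the mean, which makes a call of higher easier, so the 57 are not a measure of enrichment. In a second comparison, chosen after the data were seen, each group was set against the summed UMIs of all other neurons of the same library. There 37 of 168 pairs were higher and 72 lower by edgeR, beside 13.5% and 16.7% over all pairs, and 61 of the 81 pairs were called in the same direction in both.

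In the second comparison Chrna5 was higher in 3 groups only, Vwc2 Palldl1 Tenm3 (log2 difference 3.21, adjusted p = 3.59e-163), layer 6 corticothalamic-like (3.16, adjusted p = 1.02e-14) and Nxph1 Efcab3 Tshz2 nuclei (2.12, adjusted p = 1.15e-14), and lower in 16 of 21 by edgeR. Chrm2 was higher in Npsr1 Tacr1 Nos1 (3.37) and Nxph1 Efcab3 Tshz2 nuclei (2.75), Chrna7 in Cnr1 Adarb2-like (2.46) and Lamp5-like nuclei (1.46), and Chrm3 in upper-layer-like (1.29), Sst-like (1.08), Vwc2 Palldl1 Tenm3 (1.02) and Col5a2 Nxph2 Hs3st4 nuclei (0.88), each in 5 of 5 libraries. Each group is set against a different sum, and each p rests on a model fitted to 5 pairs. Neither these differences nor their p therefore rank the groups. Chrm3 was lower in Nxph1 Efcab3 Tshz2 (-5.53) and Lamp5-like nuclei (-3.78). The call of Chrm1 in Lamp5-like nuclei was not kept (-0.02, edgeR adjusted p = 0.963), and 10 groups were lower for Chrm1. Chrna4 was lower in upper-layer-like nuclei (-1.65, edgeR adjusted p = 7.95e-09). Chrnb2 could be tested here in all 21 groups, and its lowest edgeR adjusted p was 0.136, in Cux2 Pld5 Rorb nuclei.

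By group, the number of the 7 tested genes called is set beside the percent of all 10926 genes called in that group against the mean of the others. Layer 6 corticothalamic-like nuclei had all 7 called (50.3% of all genes), with Chrm1, Chrm4, Chrna4, Chrna5 and Chrna7 higher and Chrm2 and Chrm3 lower. Galnt14 Rxfp1-like nuclei had 6 called (43.6%), every one but Chrna5 and all higher. Cux2 Pld5 Rorb (41.9%) and Il1rapl2 Slc7a11 Col8a1 nuclei (46.1%) had 5 each, and upper-layer-like (53.8%), mid-layer Rorb-like (49%) and layer 5 extratelencephalic-like nuclei (41.6%) 4 each, with Chrm1 and Chrm4 higher in all 5 of these groups. Vwc2 Palldl1 Tenm3 nuclei had 4 (31.6%), Chrm1, Chrm3, Chrna4 and Chrna5, all higher. Nxph1 Efcab3 Tshz2 nuclei had 5 (33.6%), with Chrm2, Chrna4 and Chrna5 higher and Chrm3 and Chrna7 lower.

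Among inhibitory groups 4 were called in Cnr1 Adarb2-like nuclei (22.3% of all genes), with Chrm3, Chrna5 and Chrna7 higher and Chrm2 lower. Also 4 were called in Vip-like nuclei (29.5%), with Chrm3, Chrna4 and Chrna7 higher and Chrm2 lower. Lamp5-like nuclei had 4 (21.8%), with Chrm1 and Chrna7 higher and Chrm2 and Chrm3 lower, and Npsr1 Tacr1 Nos1 nuclei 4 (13.6%), with Chrm2 alone higher. The 3 groups named by Slit2 or Mybpc1 had 3 each, all with Chrm2 higher and Chrna7 lower: Slit2 Fras1 Shroom3 (20.6%), Mybpc1 Slit2 Arhgap6 (24.4%) and Slit2 Mybpc1 Ltbp1 (14.2%). Pvalb-like nuclei had 3 (35.4%), with Chrm3 and Chrna7 lower and Chrm4 higher at an edgeR adjusted p of 0.0496, and Col5a2 Nxph2 Hs3st4 nuclei 3 (16%). Sst-like nuclei had 2 (28.4%), Chrm3 and Chrna7, both higher. Adamtsl1 Matn2 Htr2c (12.9%) and Adarb2 Cpne4 Cadps2 nuclei (9.38%) had 2 each, with Chrm3 higher in both.

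Some of the calls by group turned direction when nuclei were assigned by marker score. For Chrna7 these were Sst-like (-0.67), layer 6 corticothalamic-like (-0.32), upper-layer-like (-0.12) and mid-layer Rorb-like nuclei (-0.0047). For Chrm2 they were Lamp5-like (0.71), layer 5 extratelencephalic-like (0.14) and layer 6 corticothalamic-like nuclei (0.015). Chrm1 in Lamp5-like (-0.13) and Chrm4 in Pvalb-like nuclei (-0.11) turned as well. Called in the new direction by edgeR were Chrm2 in Lamp5-like (adjusted p = 4.36e-04) and Chrna7 in Sst-like (4.07e-04) and layer 6 corticothalamic-like nuclei (0.0150). The others were not called there. The high calls of Chrna7 in Cnr1 Adarb2-like and of Chrna5 in layer 6 corticothalamic-like nuclei are not among those that turned. Marker score put all neurons into the groups named from markers, so each difference there has other members and another mean. Groups named by leading genes, such as Npsr1 Tacr1 Nos1, Nxph1 Efcab3 Tshz2 and Vwc2 Palldl1 Tenm3, could not be checked this way.

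Of the 81 calls by group, 20 were not kept against the sum of the other neurons, and each of them had been a call of higher. For Chrm1 these were layer 5 extratelencephalic-like (-0.039), Vwc2 Palldl1 Tenm3 (-0.063), Lamp5-like (-0.020), layer 6 corticothalamic-like (0.096) and Cux2 Pld5 Rorb nuclei (0.25), and for Chrm4 Il1rapl2 Slc7a11 Col8a1 (-0.013), layer 6 corticothalamic-like (-0.047), Pvalb-like (-0.40) and Cux2 Pld5 Rorb nuclei (0.21). For Chrm3 they were Galnt14 Rxfp1-like (0.048), Adarb2 Cpne4 Cadps2 (-0.061) and Slit2 Fras1 Shroom3 nuclei (-0.31), the last called lower. For Chrna4 it was Vip-like nuclei (0.63). For Chrna5 they were Cnr1 Adarb2-like (-0.16), Col5a2 Nxph2 Hs3st4 (-0.88) and Il1rapl2 Slc7a11 Col8a1 nuclei (-1.25, called lower). For Chrna7 they were layer 6 corticothalamic-like (-0.19), Sst-like (-0.082), Cux2 Pld5 Rorb (0.012) and upper-layer-like nuclei (-0.16, called lower). Several of these calls were above the mean CPM of the other groups in few libraries: 0 of 5 for Chrm3 in Slit2 Fras1 Shroom3 nuclei and for Chrna5 in Col5a2 Nxph2 Hs3st4 and Il1rapl2 Slc7a11 Col8a1 nuclei, 1 of 5 for Chrna7 in layer 6 corticothalamic-like and upper-layer-like nuclei, and 2 of 5 for Chrm3 in Galnt14 Rxfp1-like, Chrm4 in Pvalb-like, Chrna5 in Cnr1 Adarb2-like and Chrna7 in Cux2 Pld5 Rorb nuclei.

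The share of nuclei with at least 1 UMI was compared after thinning each nucleus to 2000 UMIs, which left out 1049 excitatory and 428 inhibitory nuclei. Intervals are exact binomial at 95% and cover counting error only. Chrm3 was seen in 60.7% of excitatory nuclei (60.0 to 61.5) and 65.7% of inhibitory nuclei (64.2 to 67.2), and without thinning in 76.3% and 77.1%. Microglia, with a median depth of 1550 UMIs, showed it in 4.67% (2.91 to 7.05). Chrm2 was seen in 17.2% and 13.3% after thinning and 33.4% and 21.1% before it, with 1.56% in thinned microglia. Chrna7 was seen in 13.6% and 15.4% after thinning and in 37.6% and 28.3% before it, so the unthinned shares had the order of the median depths and the opposite order to the CPM. Chrna5 stood at 7.71% and 1.55% after thinning (17.4% and 3.49% before), and Chrm1 at 5.17% and 2.18% (18.9% and 5.35% before), with at most 1 thinned nucleus of microglia in 450 for either.

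For the sparse genes these shares came near those of glia. Chrm4 was seen in 2.04% of thinned excitatory (1.82 to 2.27) and 0.785% of inhibitory nuclei (0.538 to 1.11), beside 0.672% of oligodendrocytes (0.247 to 1.46, median depth 1699 UMIs), so its share in inhibitory nuclei was not above that background. Chrna4 was seen in 2.02% and 1.50%, beside 1.33% of microglia (0.491 to 2.88) and 2.21% of oligodendrocyte precursors (1.48 to 3.18). Chrnb2 was seen in 0.573% and 0.466%, with 0 of 450 microglia, an exact interval up to 0.816%. Before thinning Chrm4, Chrna4 and Chrnb2 stood at 8.20%, 6.97% and 2.29% of excitatory and 2.53%, 3.51% and 1.60% of inhibitory nuclei.

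**Figure D5:**
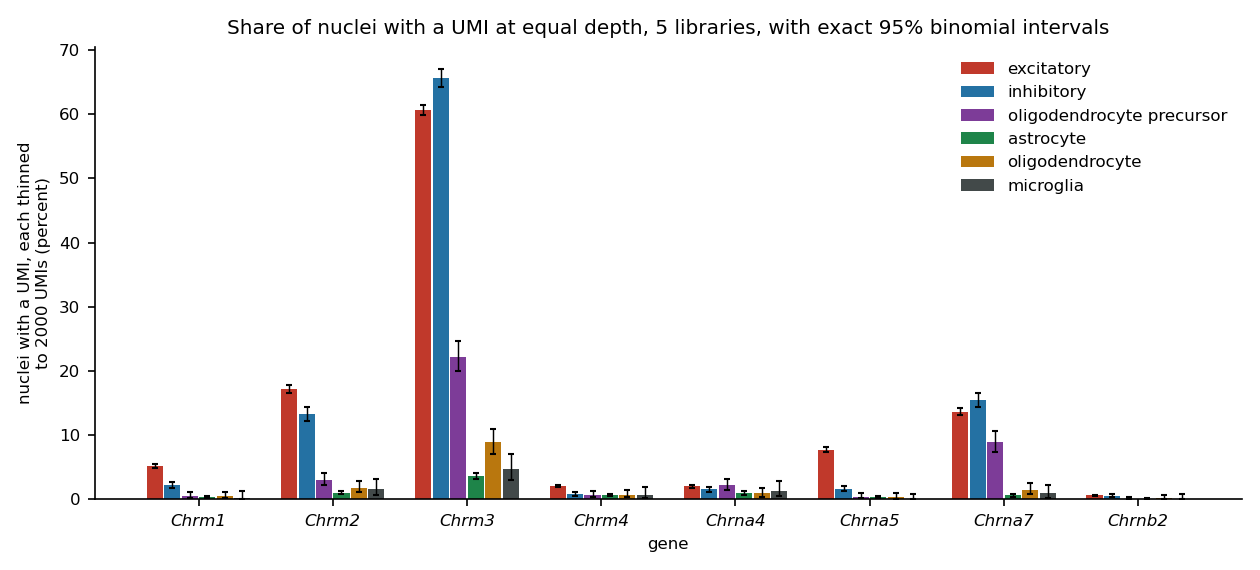
Percent of nuclei with at least 1 UMI of each receptor gene after thinning each nucleus to 2000 UMIs, by class, over the 5 labelled libraries (bars from 0, exact 95% binomial intervals). Chrm3 is in more than 60% of neurons, while Chrm4, Chrna4 and Chrnb2 stay at 2.04% or less in both neuron classes.

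In single groups at equal depth 78.1% of Npsr1 Tacr1 Nos1 nuclei (66.0 to 87.5) and 66.0% of Nxph1 Efcab3 Tshz2 nuclei (62.8 to 69.0) had a UMI of Chrm2, whereas 0.295% of Lamp5-like nuclei did. Chrm3 was seen in 88.6% of Sst-like, 89.6% of upper-layer-like and 2.2% of Nxph1 Efcab3 Tshz2 nuclei (1.35 to 3.37). Chrna5 was seen in 46.0% of Vwc2 Palldl1 Tenm3 nuclei (39.2 to 53.0), 24.9% of layer 6 corticothalamic-like and 27.2% of Nxph1 Efcab3 Tshz2 nuclei, against 0.647% of upper-layer-like nuclei. Chrna7 was seen in 50.5% of Cnr1 Adarb2-like (45.4 to 55.6) and 31.3% of Lamp5-like nuclei (26.4 to 36.5). Unthinned, the highest shares of these 4 genes in the groups just named were 88.2%, 97.2%, 84.5% and 72.7%.

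Outside neurons, Chrna7 in oligodendrocyte precursors read 43.7, 60.3, 56.5, 43.5 and 44.1 CPM, with a share of 8.85% of nuclei at equal depth (7.35 to 10.6, 10.6% unthinned) against 1.46% of oligodendrocytes (0.777 to 2.48), 0.889% of microglia and 0.563% of astrocytes. Chrm3 in precursors read 145, 287, 70.6, 171 and 137 CPM, with 22.2% of nuclei (19.9 to 24.6) against 8.85% (7.07 to 10.9), 4.67% and 3.56% in the same order. For both genes the counting intervals of precursors lay above those of oligodendrocytes, microglia and astrocytes, a difference that was not tested across libraries. No UMI of Chrnb2 was counted in 2133 precursor nuclei.

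Other genes of acetylcholine signalling were counted by list between excitatory and inhibitory nuclei: 43 were in the table, 33 passed the filter, and in excitatory nuclei 13 stood higher, 12 lower and 8 were not called. Over all genes tested 26.8% were higher and 34.2% lower, and the counts by list are to be read against these shares. Chrna6, Chat and Slc18a3 were not analysed here. Of the nicotinic subunits outside the 8 genes, 3 of 12 were tested and 2 were lower, Chrnb1 (4.60 ± 0.849 against 11 ± 1.78 CPM, log2 difference -1.19) and Chrng (19.1 ± 0.725 against 24.3 ± 2.25, -0.26), both known as subunits of the muscle receptor. The remaining muscarinic gene, Chrm5, was also lower in excitatory nuclei (7.73 ± 1.38 against 12.8 ± 1.34 CPM, -0.66). Chrna9 and Chrnd had 3 UMIs each over the 17 libraries.

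Of the genes for synthesis, transport and breakdown 5 were tested, 3 were lower and 1 was higher in excitatory nuclei. Lower were Slc5a7, the choline transporter of cholinergic neurons (0.514 ± 0.322 against 10.6 ± 0.739 CPM, log2 difference -4.43), and the cholinesterases Bche (31.0 ± 6.50 against 115.5 ± 31.6, -1.82) and Ache (4.5 ± 1.11 against 13.2 ± 1.51, -1.52). Slc44a1, a general choline transporter, was higher (0.42). Of the chaperones and Ly6 proteins that bind nicotinic receptors, 9 were tested, 4 were lower and 3 higher. Lypd6b (1.3 ± 0.322 against 125.3 ± 14.0 CPM, -6.50) and Lypd6 (2.3 ± 0.437 against 103.6 ± 14.9, -5.43) had the largest differences, and Ric3, a chaperone of Chrna7, and Lynx1 were lower (-0.32 and -0.35). Ly6e, Lypd1 and Rapsn were higher (0.96, 0.60 and 0.50).

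Of the signalling partners of muscarinic receptors, 15 were tested, 9 were higher and 2 lower in excitatory nuclei. The M-current channels Kcnq5 (2710 ± 408 against 1220 ± 96.2 CPM, log2 difference 1.21) and Kcnq3 (0.42), the potassium channels Kcnj6 (1.05) and Kcnj9 (0.59), the phospholipase Plcb4 (0.79), the G protein subunits Gnai1 (0.59), Gnao1 (0.38) and Gnaq (0.15) and the regulator Rgs4 (0.57) were higher. Plcb1 (1119 ± 161 against 2019 ± 119 CPM, -0.79) and Gnai2 (-0.25) were lower. The largest edgeR adjusted p among the 25 genes named as higher or lower from these lists was 0.0412, for Gnaq, and the median log2 differences of the lists with 3 or more tested genes ran from -1.52 (synthesis, transport and breakdown) to 0.38 (signalling partners), beside -0.06 over all genes.

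The genes with the most similar pattern over the 21 groups were ranked by the Pearson coefficient of mean log2(CPM + 5), with Ngef (0.93), Icam5 (0.92) and Cacna2d1 (0.90) for Chrm1. They were Tank (0.83), Isoc2a (0.77) and Ehd4 (0.76) for Chrm2, Nrxn3 (0.82), dsr-2 (0.73) and Alcam (0.69) for Chrm3, and Ndufa10 (0.85), Ifrd1 (0.85) and AABR07038477.1 (0.83) for Chrm4. For the nicotinic genes they were Smyd3 (0.83), Rab26 (0.83) and Arid2 (0.81) for Chrna4, Efcab3 (0.89), Adora1 (0.87) and Kremen1 (0.86) for Chrna5, Rreb1 (0.81), Lgi1 (0.80) and Mpdz (0.79) for Chrna7, and ENSRNOG00000033429 (0.86), Proser1 (0.85) and Actr1a (0.83) for Chrnb2. The groups were formed on such genes and share libraries and depth, so the coefficients describe these 21 points.

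The 12 unassigned libraries gave the same leading groups for the genes with steep patterns. Chrna5 was highest in Vwc2 Palldl1 Tenm3 nuclei in 5 of 5 labelled and 12 of 12 unassigned libraries, and Chrna7 in Cnr1 Adarb2-like nuclei in 5 of 5 and 12 of 12. Chrm2 was highest in Npsr1 Tacr1 Nos1 nuclei in 5 of 5 and in all 10 unassigned libraries with at least 5 such nuclei. Chrm3 was highest in Sst-like nuclei in 2 of 5 and 10 of 12. For Chrm1, Chrm4 and Chrna4 the leading group was first in 1 of 5 labelled libraries each and in 2, 1 and 4 of the unassigned ones, and their neighbouring groups overlapped. Excitatory exceeded inhibitory levels in 12 of 12 unassigned libraries for Chrm1, Chrm4 and Chrna5, in 7 of 12 for Chrm2 and Chrna4, in 6 for Chrnb2, in 3 for Chrm3 and in 0 for Chrna7.

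In level, 1412 of 2000 values of the unassigned libraries (gene by group) lay inside the range of the 5 labelled ones, 359 above and 229 below. The same shares over all genes are not given here, so these counts are not a result about the receptor genes. The pairs named next were picked from 168 pairs of gene and group and do not stand for the rest. Chrna5 in Vwc2 Palldl1 Tenm3 nuclei ran from 177 to 383 CPM with a median of 260, and 10 of 12 were below the lowest labelled value of 287. Chrm3 in Il1rapl2 Slc7a11 Col8a1 nuclei ran from 133 to 559 CPM with a median of 355, and 9 of 12 were above the highest labelled value of 298. Since these libraries have no label, no group was compared.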

How the data were processed

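Nuclei of rat prefrontal cortex were isolated from flash-frozen tissue and made into 10x 3′ libraries, per the labels' protocols. The deposited values are UMI counts per gene and nucleus, not normalized. Cell Ranger and Seurat 4.1 are named in the submitters' processing notes; the strand of counting is not given in the sources used here. The table held 146069 nuclei, 19298 genes and 772120507 UMIs, at 750 or more genes per nucleus. Simulated doublets (2 per nucleus, 1500 genes, 20 components, assumed rate 6%, limit 0.25) removed 2198 nuclei (1.50%).

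Nuclei were clustered on 2000 genes without 54 cholinergic and Srd5a genes (30 components, 15 neighbours, Leiden resolution 1, subclusters 0.5; leidenalg 0.10.2, igraph 0.11.9, scikit-learn 1.9.0). A name needed 3 markers at 2-fold and a gap of 0.6 in mean log2 fold to the next name, and 5.26% of the nuclei kept stayed unnamed. Neuron groups had at least 50 labelled nuclei and 5 per library. Subclusters of neurons whose markers of another class had a mean log2 fold of 1 or more were left out of the groups but stayed in the class sums. UMIs were summed by library and class or group and tested with edgeR 4.0.16 in R 4.3.3 (quasi-likelihood, TMM, filter on low counts, library as block, Benjamini-Hochberg over all genes); DESeq2 1.42.0 was an alternative. Excitatory and inhibitory sums of a library come from the same sample, and their deviations from the class means correlated at 0.538 to 0.647 over 13554 genes. The fits were also run on simulated counts, an outcome not reported here. An SE given with edgeR is the size of the log2 difference over the square root of the F of the test. Permutation tests were not used, since 5 pairs can give no two-sided p below 0.0625. The labels call the samples biological replicates. Members, marker and gene lists were chosen with earlier results of these data known. The genes named as results are the 8 receptor genes, the listed pathway genes that were called, and the 3 genes with the highest Pearson coefficient to each receptor gene. Also named are Srd5a2, Klrb1b, the genes in group names, and listed genes that were absent or had few UMIs.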

Additional observations from a re-analysis of the deposited data

Results flagged for a closer look

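Of 16 measures (8 genes in 2 classes) over the 5 labelled libraries, 1 had a sample far from the others: Chrna5 in excitatory nuclei of replicate 5, at 21.3 CPM, whose gap to the next value was 0.792 of the whole range against a limit of 0.71. Chance gives such a sample in about 1 of 20 groups.

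In libraries outside the comparisons, 5 values exceeded the highest labelled value by 1.5 times or more, and all came from g4.3 and g4.4, the 2 libraries that stand apart in inhibitory share and in Klrb1b. In g4.3 Chrm4 in excitatory nuclei read 19.8 CPM (1.50 times), Chrna4 in inhibitory nuclei 14.1 (1.90 times) and Chrnb2 in excitatory nuclei 5.75 (1.81 times). In g4.4 Chrna5 in inhibitory nuclei read 15.1 CPM (1.66 times) and Chrnb2 in inhibitory nuclei 6.25 (2.1 times). The part of that difference in these values was not tested.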

How the results depend on the processing

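Chrm1, Chrm4 and Chrna5 kept their call between classes under every alternative run. Without the library as a block the log2 differences of Chrm3 and Chrna7 were -0.24 and -0.34 and no longer called, and 5407 genes were called in place of 8267. With nuclei assigned by marker score they were -0.087 and -0.24, not called. Chrm2 became called with no filter on low counts (0.23) and after thinning (0.29), and Chrna4 was not called after thinning (0.47). Leaving out 1 library gave -0.27 to -0.16 for Chrm3 (not called without replicate 1), -0.50 to -0.21 for Chrna7 (not called without replicate 1 or 4) and 0.068 to 0.31 for Chrm2 (called without replicate 4). The cause was not tested.

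Of 147 pairs of gene and group 81 were called, and 100 by DESeq2's test (80 of them called in both in the same direction). Thinning left 84 pairs to test, of which 45 were called in place of 56. Marker score, which has only the 10 groups named from markers, left 70. Of these 49 were called in place of 42, with 31 called in both in the same direction. Shares over all pairs of gene and group are not given here for DESeq2's test, thinning or marker score. These changes in count are therefore not a result about the receptor genes. For Adarb2 Cpne4 Cadps2 nuclei the split over all genes was 320 higher and 705 lower (median log2 difference -0.26), and 466 and 318 (median 0.01) with DESeq2 size factors. With those factors the split also moved from 656 and 829 to 887 and 573 in Npsr1 Tacr1 Nos1, from 733 and 816 to 975 and 580 in Slit2 Mybpc1 Ltbp1, from 2117 and 984 to 1699 and 1222 in Sst-like and from 3322 and 2172 to 2660 and 2885 in layer 6 corticothalamic-like nuclei. With library totals alone the split moved by over 10 percentage points in 12 of 21 groups: Adarb2 Cpne4 Cadps2 (542 and 273), Npsr1 Tacr1 Nos1 (1121 and 474), Slit2 Mybpc1 Ltbp1 (1208 and 499), layer 6 corticothalamic-like (2470 and 3087), Adamtsl1 Matn2 Htr2c (890 and 514 to 716 and 700), Galnt14 Rxfp1-like (3002 and 1766 to 2311 and 2436), Il1rapl2 Slc7a11 Col8a1 (3089 and 1946 to 2342 and 2879), Mybpc1 Slit2 Arhgap6 (1601 and 1064 to 2141 and 830), upper-layer-like (3603 and 2279 to 2828 and 3150), Cux2 Pld5 Rorb (2922 and 1655 to 2126 and 2956), mid-layer Rorb-like (3280 and 2069 to 2292 and 3743) and Vwc2 Palldl1 Tenm3 nuclei (2078 and 1371 to 1345 and 2494). By marker score 13 pairs reversed: Chrm1 in Lamp5-like (-0.13), Chrm2 in Lamp5-like (0.71), Pvalb-like (0.51), layer 5 extratelencephalic-like (0.14) and layer 6 corticothalamic-like (0.015), Chrm3 in mid-layer Rorb-like (-0.28), Chrm4 in Pvalb-like (-0.11), Chrna5 in layer 5 extratelencephalic-like (0.98), and Chrna7 in Sst-like (-0.67), layer 5 extratelencephalic-like (-0.44), layer 6 corticothalamic-like (-0.32), mid-layer Rorb-like (-0.0047) and upper-layer-like nuclei (-0.12).

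Against the sum of the other neurons, chosen after the data were seen, 29 pairs reversed. For Chrm1 these were Cnr1 Adarb2-like (-0.91), Lamp5-like (-0.020), Nxph1 Efcab3 Tshz2 (-1.04), Vwc2 Palldl1 Tenm3 (-0.063) and layer 5 extratelencephalic-like (-0.039), and for Chrm2 Col5a2 Nxph2 Hs3st4 (-0.75) and upper-layer-like (-0.86). For Chrm3 they were Adarb2 Cpne4 Cadps2 (-0.061), Slit2 Fras1 Shroom3 (-0.31), Slit2 Mybpc1 Ltbp1 (-0.45) and mid-layer Rorb-like (-0.69), and for Chrm4 Il1rapl2 Slc7a11 Col8a1 (-0.013), Nxph1 Efcab3 Tshz2 (-0.89), Pvalb-like (-0.40) and layer 6 corticothalamic-like (-0.047). For Chrna5 they were Adamtsl1 Matn2 Htr2c (-2.41), Adarb2 Cpne4 Cadps2 (-2.26), Cnr1 Adarb2-like (-0.16), Col5a2 Nxph2 Hs3st4 (-0.88), Galnt14 Rxfp1-like (-2.0), Il1rapl2 Slc7a11 Col8a1 (-1.25), Npsr1 Tacr1 Nos1 (-1.19), Vip-like (-1.92) and mid-layer Rorb-like (-2.15). For Chrna7 they were Il1rapl2 Slc7a11 Col8a1 (-0.62), Sst-like (-0.082), layer 5 extratelencephalic-like (-0.50), layer 6 corticothalamic-like (-0.19) and upper-layer-like (-0.16). The cause was not tested.

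Thinning lowered every share with a UMI, in excitatory and inhibitory nuclei to 5.17% and 2.18% (Chrm1), 17.2% and 13.3% (Chrm2), 60.7% and 65.7% (Chrm3), 2.04% and 0.785% (Chrm4), 2.02% and 1.50% (Chrna4), 7.71% and 1.55% (Chrna5), 13.6% and 15.4% (Chrna7) and 0.573% and 0.466% (Chrnb2). Ranked by Spearman in place of Pearson coefficients, 11 of the 24 most similar genes were shared: 3 for Chrm3, 2 each for Chrm1 and Chrm2, 1 each for Chrm4, Chrna4, Chrna5 and Chrna7 and 0 for Chrnb2. Kremen1, named for Chrna5, had 0.477. The highest Spearman coefficients were 0.917 (Chrm1), 0.762 (Chrm2), 0.664 (Chrm3), 0.874 (Chrm4), 0.848 (Chrna4), 0.865 (Chrna5), 0.850 (Chrna7) and 0.833 (Chrnb2). Depth limits 28 pairs that rest on 5 UMIs or fewer, in every gene but Chrm3 (Chrnb2 in 8 groups, Chrm4 in 7, Chrna5 in 5).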
